A study of Mus musculus with 6 samples.

Results

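Kinesins were examined in retinal ganglion cells (RGCs), the projection neurons of the retina, at 2 ages. All rows of the count table whose symbol begins with Kif followed by a digit or the letter c were taken, which gave 42 of 24060 genes. They were split by the roles known for each motor into 14 mitotic kinesins, 17 transport kinesins and 10 others, and the remaining row was the pseudogene Kif4-ps. After the expression filter, 13 mitotic, 17 transport and 9 other kinesins were tested. RNA was sequenced from 3 samples of embryonic day 18 (E18) and 3 of postnatal day 5 (P5), all from untreated C57BL/6 mice, numbered 1, 3 and 4 at E18 and 6, 8 and 9 at P5. In the count table, E18 replicate 1 is named with the numbers 2 and 5 as well, so that this library may be a pool. RGCs had been isolated by immunopanning, in which papain-dissociated retinas are cleared of macrophages and the remaining cells are held on anti-CD90 (Thy1) antibodies. The labels do not say how many animals each sample holds or whether samples come from separate litters, so the p-values measure the spread between these samples. The question put to the ages by the study was how RGCs that grow axons readily differ from RGCs that have lost this ability.

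Kinesins are motor proteins that walk along microtubules using ATP. In dividing cells, one set of them separates the spindle poles, moves chromosomes and builds the midzone at which the daughter cells part. In neurons, which no longer divide, other kinesins carry mitochondria, vesicle precursors, endosomes and cytoskeletal proteins from the cell body into axon and dendrites. Some mitotic motors, such as Kif11, Kif15 and Kif23, are also known to act on microtubules of neurons that have left the cell cycle.

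Between 81213639 and 114512853 reads were counted on genes in each sample. All values are CPM, the counts of a gene scaled to a fixed library size after TMM normalization, listed for E18 in the order of replicates 1, 3 and 4 and for P5 in the order of 6, 8 and 9. A positive log2 fold change is higher at E18. The label was checked with 14 RGC markers, whose summed level was 10649.5 to 12151 CPM at E18 and 10562 to 11632 CPM at P5, and Rbpms, an RGC marker, had 293 ± 23.7 CPM on average at E18 against 315 ± 21.5 at P5 (SD over 3 samples). The largest parts of the sum at E18 were Tubb3, Nefl, Gap43 and Stmn2, with means of 2565, 1814.5, 1773 and 1107 CPM. The sum does not measure the purity of the samples. The single RGC markers did not stay level, since 5 of the 14 were called higher and 4 lower at E18 by edgeR's quasi-likelihood test, against 20.8% and 22.5% of all genes. The E18 samples differed among themselves in genes of other cells. Summed over 14 genes of dividing cells, the level was 478, 225 and 158 CPM at E18 and 121, 138 and 109 CPM at P5, and over 12 genes of retinal progenitors it was 329, 149.8 and 48.8 CPM at E18 and 34.8, 40.4 and 26.8 CPM at P5. Higher levels at E18 were called for 10 of 14 and 8 of 12 of these genes, against 20.8% of all genes. Mki67, a defining marker of dividing cells, was high in the first E18 library and low in the last, with 68.7, 16.2 and 2.84 CPM at E18 and 1.87, 4.17 and 0.967 CPM at P5. Thy1, whose protein the isolation selects for, had 212, 217 and 312 CPM at E18 and 499.5, 469 and 690.1 CPM at P5 (log2 ratio of E18 to P5 -1.16, SE 0.189, edgeR adjusted p = 0.00197). The E18 libraries also differed in 8 amacrine genes (14.7 to 199 CPM at E18, 19.2 to 28.8 CPM at P5) and 7 endothelial and pericyte genes (16.3 to 72.2 CPM at E18, 14.3 to 17.5 CPM at P5). Photoreceptor genes summed to 3.68 to 10.7 CPM at E18 and 3.59 to 4.60 CPM at P5, microglial genes to 2.10 to 3.05 and 1.69 to 2.25, bipolar genes to 46.7 to 54.6 and 69.0 to 96.6, Müller glial and astrocyte genes to 319 to 349 and 240.1 to 278, and oligodendrocyte lineage genes to 52.1 to 56.0 and 31.4 to 51.6.

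Most mitotic kinesins held the same short sequence near their start sites. The letters TTTGAA are known as the core of an element in promoters of genes used late in the cell cycle, and CCAAT boxes often accompany it. Both strands were searched in RefSeq promoter windows of GRCm38.p6, which reach from 250 bases before to 50 bases after a gene's start, and 33 of the 42 members had a window. No window was given for Kif5a, Kif5b, Kif13b, Kif19a, Kif20a, Kif21b, Kifc2, Kifc3 and Kif4-ps. TTTGAA was present in 11 of 13 mitotic kinesins (84.6%), 1 of 11 transport kinesins (9.09%) and 2 of 9 others (22.2%), against 20.2% of all 27025 genes and 17.9% of all 32851 windows. Within 30 bases of the start, the letters were found in 9 of 13 mitotic kinesins (69.2%), none of 11 transport kinesins and 1 of 9 others, against 3.14% of all windows. This distance was chosen after the positions were seen. The strand was checked by matching the end of each window to the gene's transcripts, which found no window reversed but gave no match in either direction for Kif11 and Kif23 among those shown. The 9 stretches are shown 5′ to 3′ as RefSeq gives them for the gene's strand, with 20 bases on each side where the window allows and TTTGAA, or TTCAAA where it lies on the opposite strand, in capitals.
Kif4: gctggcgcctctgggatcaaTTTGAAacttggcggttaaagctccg
Kif11: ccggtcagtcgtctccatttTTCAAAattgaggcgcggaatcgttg
Kif15: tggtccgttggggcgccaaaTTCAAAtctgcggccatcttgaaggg
Kif18b: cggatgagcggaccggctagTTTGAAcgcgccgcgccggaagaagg
Kif20b: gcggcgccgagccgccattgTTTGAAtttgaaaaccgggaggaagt
Kif22: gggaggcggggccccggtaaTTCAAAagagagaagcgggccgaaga
Kif23: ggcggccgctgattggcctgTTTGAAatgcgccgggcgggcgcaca
Kifc1: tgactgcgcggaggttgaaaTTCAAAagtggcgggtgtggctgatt
Kifc5b: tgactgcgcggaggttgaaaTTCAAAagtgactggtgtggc

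The stretches lie at chrX:100626064-100626109 (Kif4, plus strand), chr19:37376343-37376388 (Kif11, plus strand), chr9:122951042-122951087 (Kif15, plus strand), chr11:102925096-102925141 (Kif18b, minus strand), chr19:34922345-34922390 (Kif20b, plus strand), chr7:127042412-127042457 (Kif22, minus strand), chr9:61946772-61946817 (Kif23, minus strand), chr17:33890607-33890652 (Kifc1, minus strand) and chr17:26917100-26917140 (Kifc5b, plus strand) of GRCm38.p6. The letters begin 3 to 30 bases after the start in Kif4, Kif18b, Kif20b, Kif23 and Kifc5b, at base 2 in Kifc1, and 17 to 19 bases before it in Kif11, Kif15 and Kif22. In Kif20b they occur at both 8 and 14, and Kif15 and Kif22 hold a further copy at -234 and -215. Kif2c and Kif14 carry them further upstream, at -103 and -228, and Kif18a and Kif2b do not hold them. CCAAT was found in 9 of 13 mitotic kinesins (69.2%), 3 of 11 transport kinesins (27.3%), 4 of 9 others (44.4%) and 41.1% of all genes. Both sets of letters were found in 8 of 13 mitotic kinesins, no transport kinesin and 6.95% of all windows, and of the others Kif26b and Kif27 held both. The whole window of Kif23 at chr9:61946750-61947049 (minus strand) is shown as an example, since CCAAT (here ATTGG, on the opposite strand) and TTTGAA stand side by side at its start, both in capitals.
Kif23: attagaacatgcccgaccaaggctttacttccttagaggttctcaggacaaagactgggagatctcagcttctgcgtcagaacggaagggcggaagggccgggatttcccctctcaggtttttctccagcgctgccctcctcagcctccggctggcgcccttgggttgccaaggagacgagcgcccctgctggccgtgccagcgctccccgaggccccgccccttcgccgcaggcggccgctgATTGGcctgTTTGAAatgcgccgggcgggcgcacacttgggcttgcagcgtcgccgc
Letters known to bind E2F factors, TTCCCGC or TTGGCGC, were found in Kif15 and Kif18a, 2 of 13 mitotic kinesins (15.4%), in none of 11 transport kinesins and in 2 of 9 others (22.2%), against 7.79% of all genes. A match is a description of the letters and no evidence of binding. The stretches of Kifc1 and Kifc5b are nearly alike. Among the spindle genes described further on, 11 of 16 with a window held TTTGAA (68.8%).

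Mitotic kinesins had higher mean levels at E18, and some of them passed the test. All 13 tested had a positive log2 fold change, with a median of 1.00 (all genes tested, 0.0047), and 4 passed edgeR's quasi-likelihood test with Benjamini-Hochberg adjustment over all genes, each of them higher at E18. For 3 of them every E18 sample lay above every P5 sample, as did 27.6% of all genes. Across all 16449 genes tested, 20.8% were called higher at E18 and 22.5% lower. In a bulk sample, a smaller share of dividing cells and less of these RNAs per cell cannot be told apart. Kif18b, which shortens the microtubules between spindle and cell cortex, had the largest log2 fold change of the class (ENSMUSG00000051378.10, chromosome 11 of mm10, 102905529 to 102925124, minus strand). Its level was 3.23, 0.919 and 0.607 CPM at E18 and 0.135, 0.305 and 0.213 CPM at P5 (log2 ratio of E18 to P5 2.85, SE 0.649, edgeR adjusted p = 0.00845), so that every E18 sample lay above every P5 sample. Kif15 is a plus-end motor that helps Kif11 to hold the spindle poles apart (ENSMUSG00000036768.6, chromosome 9 of mm10, 122951046 to 123018733, plus strand). It had 19.3, 9.60 and 7.29 CPM at E18 and 3.73, 6.69 and 3.16 CPM at P5. The lowest E18 sample stood just above the highest P5 sample (log2 ratio of E18 to P5 1.41, SE 0.394, edgeR adjusted p = 0.0199). Kif20b is a motor of late cytokinesis (ENSMUSG00000024795.11, chromosome 19 of mm10, 34922361 to 34975745, plus strand). It had 10.6, 7.79 and 6.86 CPM at E18 and 4.33, 5.40 and 2.94 CPM at P5 (log2 ratio of E18 to P5 0.99, SE 0.254, edgeR adjusted p = 0.0138). It varied least within E18 of all 13, by 1.55-fold between the highest and the lowest sample. Kif18a damps the movements of aligned chromosomes. It had 9.44, 4.57 and 3.53 CPM at E18 and 3.69, 2.27 and 2.45 CPM at P5 (log2 ratio of E18 to P5 1.06, SE 0.369, edgeR adjusted p = 0.0449), and E18 replicate 4 lay below P5 replicate 6. Its call was lost in 7 of 12 alternatives, among them upper-quartile normalization (edgeR adjusted p = 0.0510) and a mean CPM of at least 1 (edgeR adjusted p = 0.0554), with a range of 0.00545 to 0.167 over all.

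The other motors of the spindle did not pass. Kif11 is the motor that pushes the spindle poles apart. It had 22.2, 6.91 and 2.97 CPM at E18 and 5.03, 5.43 and 5.57 CPM at P5, a 7.48-fold range within E18 that spans all P5 values (log2 ratio of E18 to P5 1.00, SE 0.580, edgeR adjusted p = 0.192). Kif2c takes microtubules apart at centromeres. It had 4.59, 1.49 and 0.729 CPM at E18 and 2.06, 2.44 and 1.98 CPM at P5 (log2 ratio of E18 to P5 0.07, SE 0.552, edgeR adjusted p = 0.932). In E18 replicate 4 it was below every P5 sample. Kifc1 is a minus-end motor that gathers microtubules at the poles. It had 4.32, 1.87 and 1.57 CPM at E18 and 1.78, 2.14 and 1.63 CPM at P5 (log2 ratio of E18 to P5 0.48, SE 0.373, edgeR adjusted p = 0.326). Its close relative Kifc5b had 3.80, 2.39 and 2.397 CPM at E18 and 1.16, 2.46 and 1.47 CPM at P5 (log2 ratio of E18 to P5 0.75, SE 0.324, edgeR adjusted p = 0.0904). These last values are uncertain, since 23.7% of the read-length stretches of 100 bases in the Kifc1 transcript also occur in that of Kifc5b, and 21.2% of those of Kifc5b in Kifc1.

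The motors of chromosome arms and of the midzone did not pass either, apart from Kif20b. Kif4 is a motor on chromosome arms that also sets the length of midzone microtubules. It had 9.61, 2.87 and 0.884 CPM at E18 and 1.27, 1.38 and 1.21 CPM at P5 and the widest range within E18, 10.9-fold (log2 ratio of E18 to P5 1.78, SE 0.685, edgeR adjusted p = 0.0630). Of its exon bases, 15.1% overlap Pdzd11 on the opposite strand. Kif22 pushes chromosome arms toward the spindle equator. It had 10.3, 6.69 and 5.69 CPM at E18 and 5.39, 7.39 and 6.96 CPM at P5 (log2 ratio of E18 to P5 0.20, SE 0.238, edgeR adjusted p = 0.526). Kif23 is the motor of the centralspindlin complex. It had 10.6, 4.38 and 3.16 CPM at E18 and 2.62, 3.59 and 1.78 CPM at P5 (log2 ratio of E18 to P5 1.18, SE 0.446, edgeR adjusted p = 0.0589). Here too the first E18 library stood far above the rest. Kif20a brings the Aurora B complex to the midzone. It had 9.40, 5.96 and 4.35 CPM at E18 and 3.97, 6.03 and 4.98 CPM at P5 (log2 ratio of E18 to P5 0.39, SE 0.286, edgeR adjusted p = 0.290), and 29.3% of its exon bases overlap Cdc23 on the opposite strand. Kif14, needed for the last steps of cytokinesis, had 3.69, 1.54 and 0.751 CPM at E18 and 1.04, 0.802 and 0.468 CPM at P5 (log2 ratio of E18 to P5 1.37, SE 0.546, edgeR adjusted p = 0.0709). Kif2b, a relative of Kif2c, had 1, 3 and 1 counts at E18 and 0, 0 and 1 at P5 and was not tested, and Kif4-ps had no count in any sample.

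**Figure D1:**
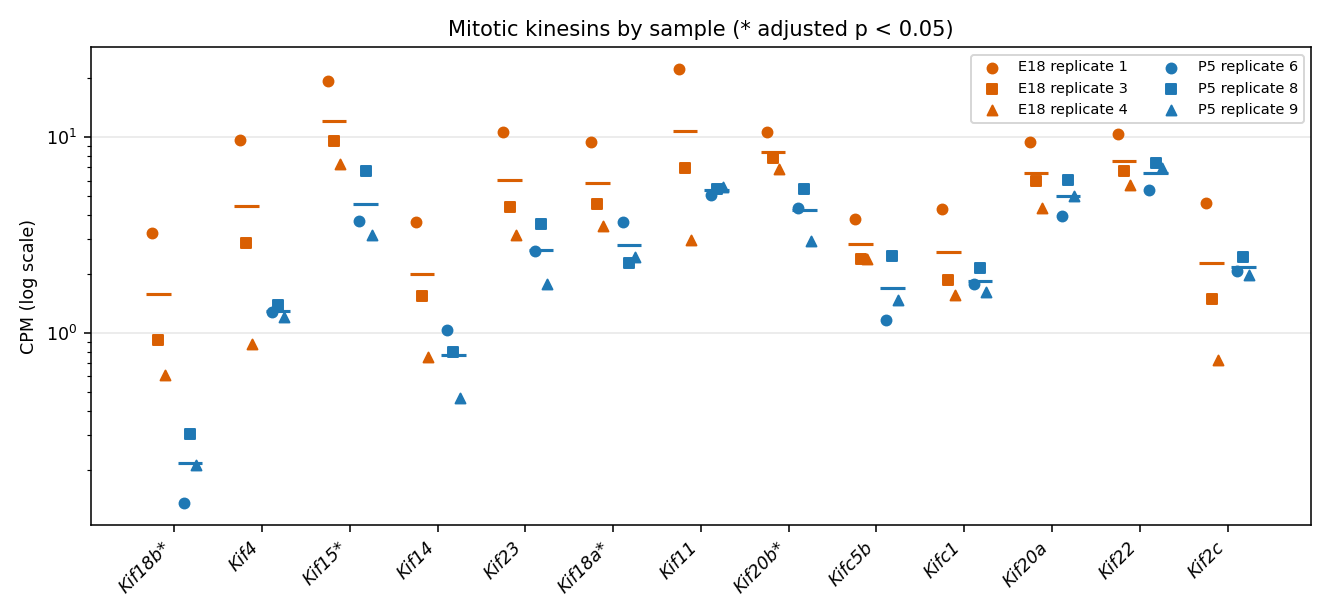
CPM on a log axis of the 13 tested mitotic kinesins in each of the 6 samples, ordered by log2 fold change, with the mean of each age as a bar and an asterisk where the adjusted p is under 0.05. E18 replicate 1 (circles) is the highest E18 sample for all 13 genes, and E18 replicate 4 (triangles) lies among or below the P5 samples for 10 of them.

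Within E18, replicate 1 was the highest for all 13 mitotic kinesins, against 27.6% of all genes tested, and replicate 4 the lowest for 12. The median ratio of replicate 1 to replicate 4 was 2.75 over the class and 0.979 over all genes. Summed over the 14 mitotic kinesins, the level was 121, 57.0 and 40.8 CPM at E18 and 36.2, 46.3 and 34.8 CPM at P5. The sum of replicate 4 thus fell between P5 samples, at 1.04 times the P5 mean, whereas that of replicate 1 was 3.10 times the P5 mean. The summed level of dividing-cell genes stood at 3.89, 1.84 and 1.29 times the P5 mean in E18 replicates 1, 3 and 4, and that of progenitor genes at 9.67, 4.41 and 1.44 times. These marker lists moved with the mitotic kinesins in the same order of E18 samples, and their part in the result was not tested. In replicate 4 alone, Kif15, Kif18b and Kif20b were above all 3 P5 samples, Kif2c, Kif4, Kif11 and Kifc1 were below them, and the other 6 were within their range. Without E18 replicate 1, only Kif18b was called, the median was 0.51, and Kif2c, Kif11, Kif22 and Kifc1 had negative values, while 30.5% of all genes were called, 14.1% higher and 16.4% lower. The count was also 1 without P5 replicate 6 and 2 without P5 replicate 9, and it rose to 8 without E18 replicate 4. The number of genes called over the whole table also varied between these runs, within the range given at the end. A change in count is thus not by itself a trait of mitotic kinesins. With every sample kept, it was 7 by the edgeR exact test or with no expression filter, and 6 by DESeq2. It was 3 with upper-quartile normalization and 2 among genes with a mean CPM of at least 1.

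Proteins that work with these motors were followed with a list of 20 spindle genes. Of these, 6 were called, each higher at E18 (20.8% of all genes), and the median log2 fold change was 0.86. Cdk1 is the kinase that drives entry into mitosis. It had 9.98, 2.37 and 0.784 CPM at E18 and 0.406, 0.660 and 0.298 CPM at P5 (log2 ratio of E18 to P5 3.26, SE 0.828, edgeR adjusted p = 0.0135), and no E18 value overlapped P5. Ccnb1 is its cyclin. It had 9.49, 2.46 and 0.685 CPM at E18 and 0.508, 1.15 and 0.882 CPM at P5 (log2 ratio of E18 to P5 2.31, SE 0.795, edgeR adjusted p = 0.0436). Without E18 replicate 1, the log2 ratio was 1.8 for Cdk1 and 0.90 for Ccnb1 (edgeR adjusted p = 0.0284 and 0.220). The call of Cdk1 was lost in 2 of 12 alternatives and that of Ccnb1 in 6. Bub1 and Bub1b, of the spindle checkpoint, had log2 fold changes of 1.54 and 1.01 with adjusted p of 0.0498 and 0.0491 in edgeR, close to the threshold, and their calls were lost in 9 and 6 of 12 alternatives. Plk1 and Aurka were also called, with log2 fold changes of 0.98 and 0.65 (edgeR adjusted p = 0.0215 and 0.0362). They were named after their values were seen. For both, every E18 sample lay above every P5 sample, as in 27.6% of all genes, and E18 varied by 1.64- and 1.69-fold. Racgap1 and Prc1 work with Kif23 and Kif4 and were named after their values were seen. Racgap1 had 30.1, 16.2 and 13.8 CPM at E18 and 21.4, 22.3 and 21.9 CPM at P5 (log2 ratio of E18 to P5 -0.13, SE 0.256, edgeR adjusted p = 0.716). Prc1 had 20.4, 10.8 and 9.33 CPM at E18 and 18.6, 13.7 and 20.1 CPM at P5 (log2 ratio of E18 to P5 -0.37, SE 0.284, edgeR adjusted p = 0.316), and for both the E18 samples lay on either side of P5. The summed level of the 20 genes was 223, 104 and 77.1 CPM at E18 and 94.3, 99.6 and 97.6 CPM at P5, so that E18 replicate 4 lay below all P5 samples. E18 replicate 1 was the highest E18 sample for all 20 genes. Without it, 1 gene of the list, Cdk1, was called higher and 2 were called lower, against 14.1% and 16.4% of all genes. The higher count was 0 without P5 replicate 6 or P5 replicate 9, 2 without E18 replicate 3 and 11 without E18 replicate 4. Calls over the whole table varied between these runs too.

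**Figure D2:**
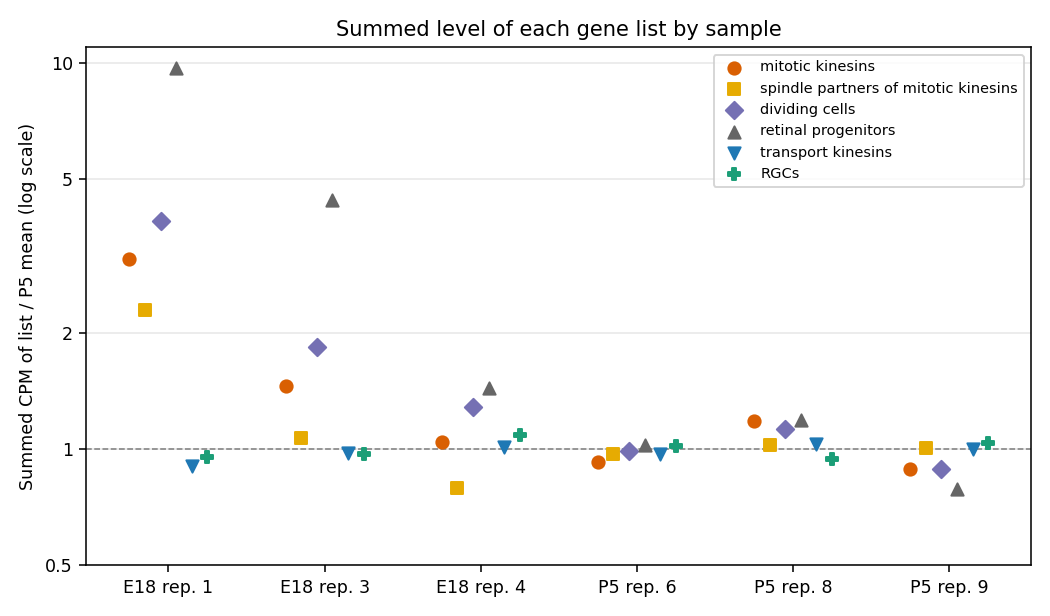
Summed CPM of each gene list in each sample, divided by the mean of the P5 samples, on a log axis, with the dashed line at 1. Mitotic kinesins stand at 3.10, 1.46 and 1.04 in E18 replicates 1, 3 and 4, in the same order as dividing-cell and progenitor genes, while transport kinesins and RGC markers stay between 0.90 and 1.09 in all samples.

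Transport kinesins moved in both directions between the ages. The quasi-likelihood test called 10 of 17, of which 4 were higher and 6 lower at E18, with a median log2 fold change of -0.12. Either way, 43.4% of all genes were called. Their summed level was 7124, 7705 and 7956 CPM at E18 and 7645, 8116 and 7884 CPM at P5, which overlapped between the ages. The 10 that were called had no overlap between the ages, a separation seen in 56.1% of all genes (27.6% with E18 above, 28.5% with E18 below). Replicate 1 was the highest E18 sample for 1 of the 17 genes, and the median ratio of replicate 1 to replicate 4 was 0.910. The 6 calls of lower genes held in all 12 alternatives, as did those of Kif21b and Kif13b. The higher count fell to 2 without E18 replicate 3, E18 replicate 4, P5 replicate 6 or P5 replicate 9, each of which ended the calls of Kif5c and Kif1c. Without E18 replicate 1 it was 3, as the call of Kif1c was lost there too, while 14.1% of all genes were called higher. Whole-table calls also varied in number between the runs that left out a sample.

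**Figure D3:**
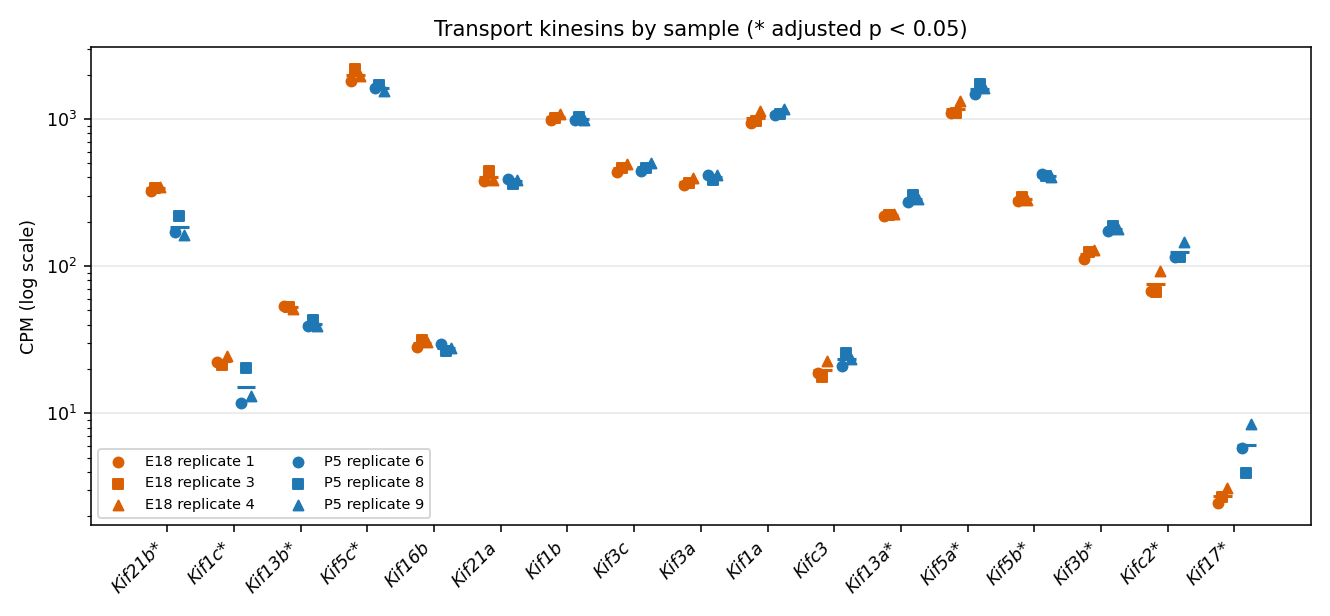
CPM on a log axis of the 17 transport kinesins in each of the 6 samples, ordered by log2 fold change, with the mean of each age as a bar and an asterisk where the adjusted p is under 0.05. The samples of one age lie close together for most genes, with a wider spread at P5 for Kif1c and Kif17, and the ages are separate for the 4 called genes at the left end and the 6 called genes at the right end.

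The heavy chains of kinesin-1, the main motor of fast axonal transport, moved in opposite directions. Kif5a is a neuronal form that also carries neurofilaments (ENSMUSG00000074657.5, chromosome 10 of mm10, 127225696 to 127263348, minus strand). It had 1096, 1104 and 1315 CPM at E18 and 1472, 1732 and 1616 CPM at P5. All P5 samples were higher, by 1.37-fold in the fit (log2 ratio of E18 to P5 -0.46, SE 0.103, edgeR adjusted p = 0.00823). Kif5b is the form found in most cell types. It had 278, 296 and 283 CPM at E18 and 423, 411 and 400.1 CPM at P5 (log2 ratio of E18 to P5 -0.52, SE 0.0782, edgeR adjusted p = 0.00137). It too was lower in every E18 sample. Kif5c is the other neuronal form (ENSMUSG00000026764.15, chromosome 2 of mm10, 49619298 to 49774778, plus strand). It had 1817, 2178 and 1953 CPM at E18 and 1618, 1701 and 1536 CPM at P5 and was 1.22-fold higher at E18 (log2 ratio of E18 to P5 0.29, SE 0.0918, edgeR adjusted p = 0.0309). Divided by transcript length in kilobases (kb), Kif5a and Kif5c were level at E18, with 293 ± 31.1 and 289 ± 26.6 CPM per kb, and apart at P5, with 402 ± 32.6 and 236 ± 11.99 (SD, n = 3 each). The ratio of Kif5a to Kif5c per kb, which does not depend on the scaling between samples, was 1.03, 0.870 and 1.16 at E18 and 1.56, 1.75 and 1.805 at P5 (exact permutation test, two-sided p = 0.1, the smallest that 3 samples against 3 allow). That p was fixed in advance, because every E18 sample was already lower for Kif5a and higher for Kif5c. It adds nothing to the values of the single genes. Among these 3 heavy chains, the share of Kif5c was 45.3%, 49.4% and 43.1% at E18 and 35.0%, 33.1% and 32.2% at P5. Kif5b took 7.88%, 7.64% and 7.10% at E18 and 10.4%, 9.08% and 9.55% at P5. The Kif5 transcripts share no stretch of 100 bases, so reads of that length separate them.

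**Figure D4:**
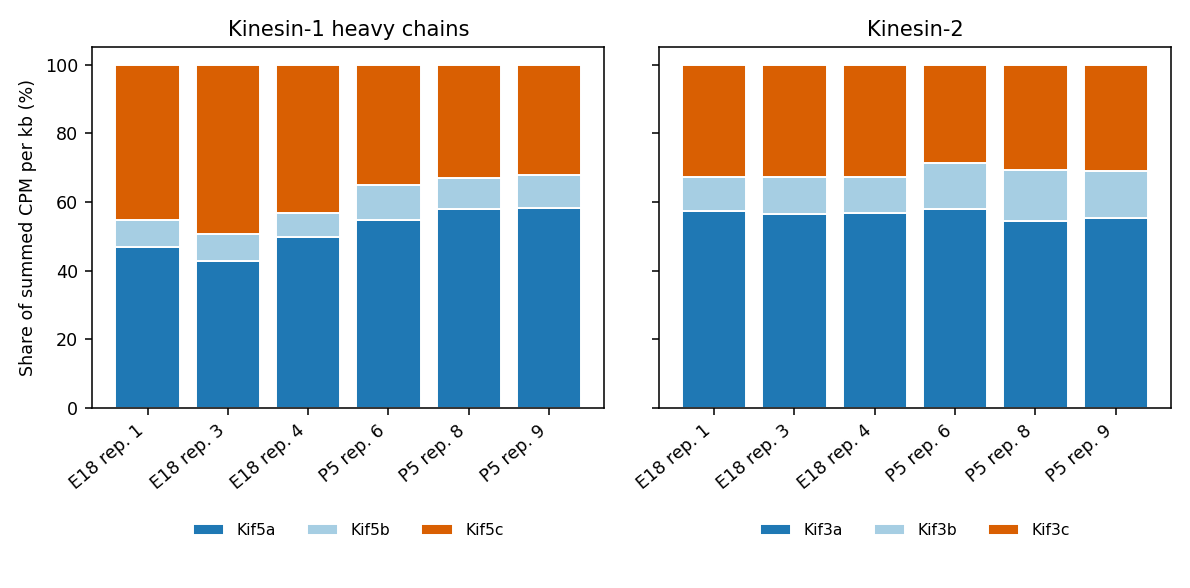
Share of each member in the summed CPM per kb of the kinesin-1 heavy chains (left) and of Kif3a, Kif3b and Kif3c (right), as stacked bars that add to 100% in each of the 6 samples. Kif5c holds 43.1% to 49.4% of its family at E18 and 32.2% to 35.0% at P5, and Kif3b holds 10.1% to 10.7% and 13.5% to 14.8%.

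Kinesin-2 pairs Kif3a with Kif3b or Kif3c and serves both cilia and vesicle transport. Kif3a is the shared subunit. It had 354, 369 and 396 CPM at E18 and 416, 383 and 413 CPM at P5 and did not pass (log2 ratio of E18 to P5 -0.12, SE 0.0845, edgeR adjusted p = 0.296). Kif3b (ENSMUSG00000027475.9, chromosome 2 of mm10, 153291413 to 153333390, plus strand) had 111, 125 and 129 CPM at E18 and 173, 186 and 179 CPM at P5 and was lower in every E18 sample (log2 ratio of E18 to P5 -0.56, SE 0.0899, edgeR adjusted p = 0.00185). Kif3c is its neuronal counterpart. It had 433, 462 and 493 CPM at E18 and 442, 466 and 498 CPM at P5 (log2 ratio of E18 to P5 -0.02, SE 0.0886, edgeR adjusted p = 0.878), and 35.3% of its exon bases overlap a gene on the opposite strand. The ratio of Kif3b to Kif3c per kb was 0.309, 0.327 and 0.316 at E18 and 0.472, 0.482 and 0.434 at P5 (exact permutation test, two-sided p = 0.1, the smallest possible). That p was again fixed in advance, because the gap between the ages in Kif3b was wider than the whole range of Kif3c. Kifap3, the non-motor subunit that links the pair to cargo, had 629 ± 41.6 CPM on average at E18 against 722 ± 105 at P5 (SD over 3 samples, log2 ratio of E18 to P5 -0.20, SE 0.115, edgeR adjusted p = 0.194). Kif17, which moves as a pair of its own in dendrites and cilia, was the scarcest transport kinesin per kb and had the most negative log2 ratio of the class, with 2.46, 2.69 and 3.11 CPM at E18 and 5.85, 3.92 and 8.46 CPM at P5 (log2 ratio of E18 to P5 -1.14, SE 0.277, edgeR adjusted p = 0.0111). The P5 samples spread from 3.92 to 8.46 CPM but stayed above E18.

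Among kinesin-3 motors, the main carriers of synaptic vesicle precursors showed no called change. Kif1a carries synaptic vesicle precursors and dense-core vesicles. It had 936, 964 and 1123 CPM at E18 and 1059, 1081 and 1169 CPM at P5 (log2 ratio of E18 to P5 -0.13, SE 0.0954, edgeR adjusted p = 0.292). Kif1b, whose isoforms carry mitochondria or vesicle precursors, had 986, 1012 and 1083 CPM at E18 and 985, 1037 and 982 CPM at P5 (log2 ratio of E18 to P5 0.04, SE 0.0788, edgeR adjusted p = 0.731), and the counts do not separate the isoforms. Kif1c is a less abundant relative. It had 22.4, 21.3 and 24.5 CPM at E18 and 11.8, 20.4 and 13.04 CPM at P5 (log2 ratio of E18 to P5 0.59, SE 0.197, edgeR adjusted p = 0.0392), with P5 replicate 8 close to the E18 samples. A pair of endosomal and membrane carriers moved apart. Kif13a is a carrier of endosomes and sorting vesicles (ENSMUSG00000021375.10, chromosome 13 of mm10, 46749087 to 46929867, minus strand). It had 218, 221 and 224 CPM at E18 and 274, 305 and 285 CPM at P5 (log2 ratio of E18 to P5 -0.38, SE 0.0814, edgeR adjusted p = 0.00651). Kif13b, a carrier of PIP3-bearing vesicles (ENSMUSG00000060012.9, chromosome 14 of mm10, 64647265 to 64809617, plus strand), had 53.5, 52.6 and 51.5 CPM at E18 and 39.0, 42.9 and 39.1 CPM at P5 (log2 ratio of E18 to P5 0.38, SE 0.0882, edgeR adjusted p = 0.00920). Kif13a relative to Kif13b per kb was 3.33, 3.43 and 3.56 at E18 and 5.72, 5.799 and 5.94 at P5 (exact permutation test, two-sided p = 0.1, the smallest possible), with all E18 samples below all P5 samples. Here too the p was fixed in advance, because all E18 samples were below P5 for Kif13a and above it for Kif13b. Kif16b, a motor of early endosomes, had 30.01 ± 1.73 CPM on average at E18 against 27.9 ± 1.43 at P5 (SD over 3 samples, log2 ratio of E18 to P5 0.10, SE 0.0987, edgeR adjusted p = 0.424).

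Kif21b, a kinesin-4 motor that travels on and restrains the growth of microtubules, had the largest positive log2 ratio of E18 to P5 among transport kinesins (ENSMUSG00000041642.18, chromosome 1 of mm10, 136131389 to 136177998, plus strand). It had 325, 339 and 347 CPM at E18 and 169, 219.9 and 162 CPM at P5 (log2 ratio of E18 to P5 0.88, SE 0.123, edgeR adjusted p = 0.00105). Every E18 sample was above every P5 sample, by 1.84-fold in the fit. Its relative Kif21a had 377, 442 and 384 CPM at E18 and 390.0, 360.3 and 387 CPM at P5 and overlapped between the ages (log2 ratio of E18 to P5 0.08, SE 0.0923, edgeR adjusted p = 0.508). The ratio of Kif21b to Kif21a per kb was 0.582, 0.517 and 0.609 at E18 and 0.292, 0.411 and 0.282 at P5 (exact permutation test, two-sided p = 0.1, the smallest possible). Here too the p was fixed in advance, because the gap between the ages in Kif21b was wider than the whole range of Kif21a. Of the minus-end motors of kinesin-14 that do not serve the spindle, Kifc2, a neuronal form, had 68.1, 66.4 and 92.4 CPM at E18 and 116, 115 and 145 CPM at P5 and was lower at E18 (log2 ratio of E18 to P5 -0.73, SE 0.151, edgeR adjusted p = 0.00569). Kifc3 had 18.9, 17.6 and 22.6 CPM at E18 and 21.0, 25.6 and 23.6 CPM at P5 (log2 ratio of E18 to P5 -0.25, SE 0.131, edgeR adjusted p = 0.158).

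Ordered by mean level per kb at E18, the transport kinesins ran from Kif5a and Kif5c through Kif1b (171 ± 8.43), Kif1a (123 ± 12.3), Kif3a (118 ± 6.77), Kif3c (68.1 ± 4.41), Kif21a (65.3 ± 5.82), Kif5b (47.4 ± 1.56), Kif21b (37.0 ± 1.22), Kif13a (32.2 ± 0.463), Kifc2 (23.5 ± 4.52) and Kif3b (21.6 ± 1.66) to Kif13b, Kifc3, Kif16b, Kif1c and Kif17, all at or under 9.37 CPM per kb (mean ± SD, n = 3). The neighbours Kif5a and Kif5c, Kif1a and Kif3a, and Kif3c and Kif21a differed by less than the SD of either gene, whereas Kifc2 and Kif3b differed by less than the SD of Kifc2 but by more than that of Kif3b. At P5, Kif5a stood clear of Kif5c, Kif5b (68.2 ± 1.88) reached the level of Kif3c (69.0 ± 4.09), and Kif21b stood at 20.2 ± 3.46, below Kif13a (41.9 ± 2.32), Kifc2 (38.9 ± 5.30) and Kif3b (31.9 ± 1.12). No mitotic kinesin had a mean above 3.58 CPM per kb at E18 or 3.11 at P5, both those of Kif22. The lengths are those of 1 transcript per gene, so values per kb are less certain for genes with isoforms of unequal length, such as Kif1b.

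**Figure D5:**
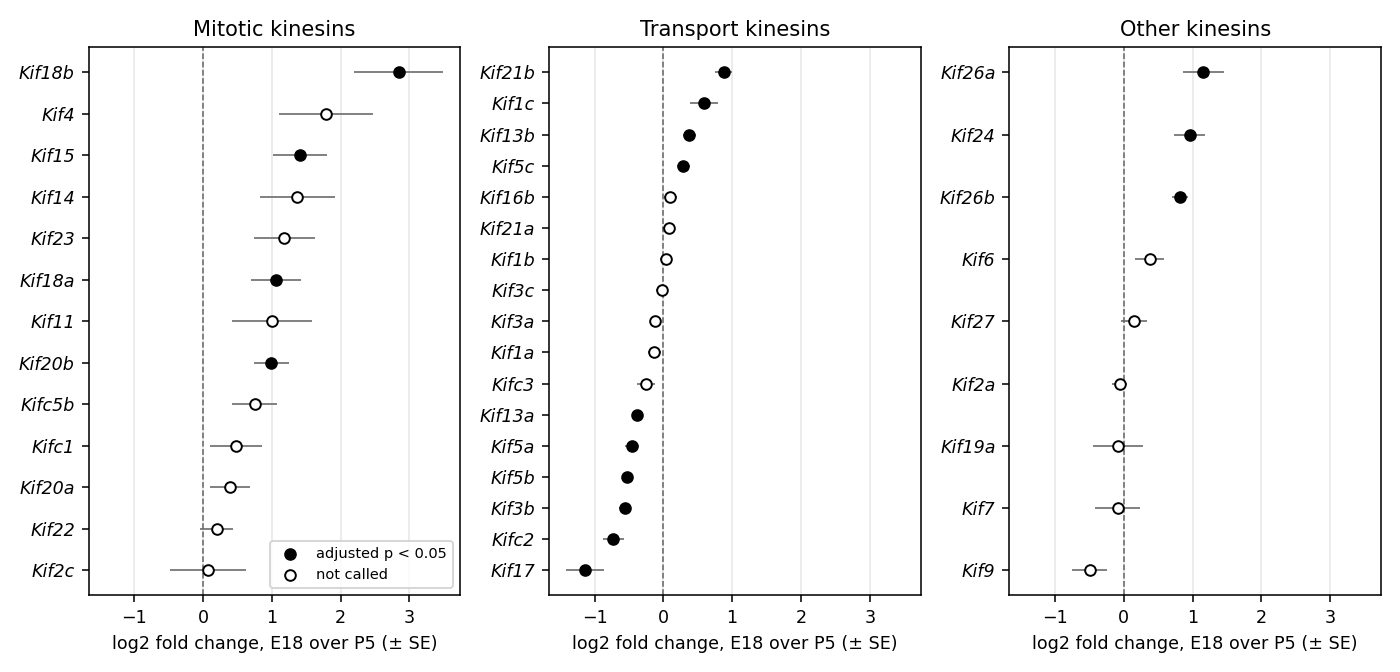
Log2 fold change of E18 over P5 with its standard error for the 39 tested kinesins in 3 classes, with filled points where the adjusted p is under 0.05. All 13 mitotic kinesins lie right of 0, with 4 filled, whereas the 17 transport kinesins fall on both sides, with 4 filled at the right and 6 at the left, and the 3 filled points among the others lie at the right.

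Among the 10 other kinesins, 9 were tested and 3 were called, all of them higher at E18, against 20.8% of all genes called higher. Kif26a and Kif26b, which bind microtubules but lack motor activity, had 54.4, 65.8 and 52.5 CPM at E18 and 17.97, 41.3 and 18.13 CPM at P5 for Kif26a (log2 ratio of E18 to P5 1.16, SE 0.301, edgeR adjusted p = 0.0148) and 85.4, 83.7 and 99.4 CPM at E18 and 55.3, 43.9 and 52.6 CPM at P5 for Kif26b (log2 ratio of E18 to P5 0.82, SE 0.118, edgeR adjusted p = 0.00116). For both genes all E18 samples were above P5, although P5 replicate 8 of Kif26a stood far above the other P5 samples. Without P5 replicate 6 the call of Kif26a was lost (edgeR adjusted p = 0.0628, within a range of 0.000184 to 0.0628 over 12 alternatives). Kif24 is a motor-like protein of centrioles that holds back cilia. It had 8.53, 8.26 and 5.31 CPM at E18 and 4.48, 3.70 and 3.18 CPM at P5 (log2 ratio of E18 to P5 0.96, SE 0.227, edgeR adjusted p = 0.00986), and no alternative ended its call. Kif2a trims microtubules and limits axon branches. It had 80.3, 104 and 89.9 CPM at E18 and 98.5, 91.8 and 94.9 CPM at P5 (log2 ratio of E18 to P5 -0.06, SE 0.108, edgeR adjusted p = 0.704), and 19.2% of its exon bases overlap Dimt1 on the opposite strand. The ciliary genes Kif6, Kif7, Kif9, Kif19a and Kif27 had means of 1.43 to 5.53 CPM at E18 and 1.52 to 6.63 CPM at P5, and none passed (adjusted p = 0.152 to 0.870 in edgeR). Kif12 had 6, 8 and 5 counts at E18 and 38, 8 and 43 at P5 and did not pass the filter.

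Kinesins take up cargo through light chains and adaptors, and 24 such genes were followed from a list. The quasi-likelihood test called 2 of them higher and 8 lower at E18, with a median log2 fold change of -0.18, against 20.8% and 22.5% of all genes. Of the light chains of kinesin-1, Klc1, the most abundant, had 1082, 1198 and 1214 CPM at E18 and 1030.0, 1065 and 1068 CPM at P5, with all E18 samples above P5 and no call (log2 ratio of E18 to P5 0.14, SE 0.0806, edgeR adjusted p = 0.177). Klc4 had 50.4, 51.7 and 53.0 CPM at E18 and 30.8, 28.5 and 27.4 CPM at P5 and the smallest adjusted p of the list (log2 ratio of E18 to P5 0.84, SE 0.0924, edgeR adjusted p = 0.000422). Klc2 had 111, 117 and 129.8 CPM at E18 and 142, 139 and 178 CPM at P5 and was lower at E18 (log2 ratio of E18 to P5 -0.36, SE 0.117, edgeR adjusted p = 0.0354). Klc3, scarce at both ages, had 1.64, 1.05 and 1.10 CPM at E18 and 2.21, 1.85 and 3.19 CPM at P5 (log2 ratio of E18 to P5 -0.93, SE 0.288, edgeR adjusted p = 0.0288). The calls of Klc2 and Klc3 were lost in 3 and 4 of 12 alternatives, each with 1 sample left out, whereas that of Klc4 held in all. The light chains thus also moved in both directions, and Klc2 relative to Klc4 per kb was 1.74, 1.79 and 1.94 at E18 and 3.65, 3.86 and 5.12 at P5 (exact permutation test, two-sided p = 0.1, the smallest possible). This p was fixed in advance as well, because all E18 samples were below P5 for Klc2 and above it for Klc4.

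Of the cargo adaptors, Trak2, which ties mitochondria to kinesin-1, had 79.7, 81.5 and 82.2 CPM at E18 and 116, 151 and 143 CPM at P5 (log2 ratio of E18 to P5 -0.75, SE 0.109, edgeR adjusted p = 0.00122). Sybu (syntabulin), an adaptor for syntaxin vesicles and mitochondria, had 79.9, 85.1 and 103 CPM at E18 and 146, 142 and 149 CPM at P5 (log2 ratio of E18 to P5 -0.70, SE 0.110, edgeR adjusted p = 0.00165). Clstn1 is a membrane protein that docks vesicles to the light chains. It had 683, 681 and 799 CPM at E18 and 986, 1118 and 1217 CPM at P5 (log2 ratio of E18 to P5 -0.62, SE 0.107, edgeR adjusted p = 0.00260). For these 3 genes no E18 value reached the P5 range. Ppfia1, of the liprin family that binds Kif1a, went the other way, with 89.8, 99.4 and 91.0 CPM at E18 and 55.8, 75.7 and 53.6 CPM at P5 (log2 ratio of E18 to P5 0.60, SE 0.137, edgeR adjusted p = 0.00872). The family did not move as one. Its members Ppfia2, Ppfia3 and Ppfia4 were named after their values were seen. Ppfia4 was lower at E18 (log2 ratio of E18 to P5 -0.44, SE 0.136, edgeR adjusted p = 0.0284). Ppfia2 and Ppfia3 did not pass, with log2 fold changes of 0.28 and -0.24. The JIP scaffolds Mapk8ip1, Mapk8ip2 and Mapk8ip3, named after their values were seen, did not pass, with log2 fold changes of -0.10, -0.00313 and -0.07. The count of lower adaptors and light chains was 5 without E18 replicate 1, 4 without E18 replicate 3 and 5 without P5 replicate 9. Without E18 replicate 1, 16.4% of all genes were called lower, and the whole-table count varied between these runs as well.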

How the data were processed

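RNA-seq of 6 samples was read from a deposited table of counts. The authors used TruSeq libraries with depletion of ribosomal RNA (the labels name polyA RNA), sequenced both ends over 100 bases, aligned reads to mm10 with STAR and deposited raw HT-seq counts per RefSeq gene. Per the labels, CASAVA 1.8.2 and edgeR were also used. The authors further deposited normalized counts (a signal scaled for library size), log2 fold changes, p-values and a rank score, none of which was used. How strands and reads with several matches were treated is not given in the sources used here. Whether E18 replicate 1, whose column name holds the numbers 2 and 5 as well, is a pool is not stated there.

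TMM factors were computed and the quasi-likelihood test of edgeR 4.0.16 (R 4.3.3) was run over 16449 of 24060 genes, those left by its filter on low counts, with Benjamini-Hochberg adjusted p under 0.05 as a call. SE was derived from the F statistic. The script was tested on simulated data. Each sample had 81213639 to 114512853 counts. Replicates of one age still differed, with chi-square values per degree of freedom of 30.5 to 49 at E18 and 71.9 to 141 at P5.

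Every row matching the rule was named, with all light chains and, of each partner list, up to 4 called genes with the largest change in each direction. The members, lists and motifs were chosen with earlier results of these data known. Lengths and overlaps came from GENCODE M21 (mm10), with 1 transcript per gene, and promoters from RefSeq. Alternatives were DESeq2 1.42.0, the exact test, other normalizations and filters, and leaving out each sample.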

Additional observations from a re-analysis of the deposited data

How the results depend on the processing

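No paired analysis was possible because the replicate numbers of the 2 ages are not shared. The 10 transport calls held under all 6 alternatives that kept every sample. The mitotic count of 4 became 7 with the edgeR exact test, 7 with no expression filter, 6 with DESeq2, 3 with upper-quartile normalization and 2 with a mean CPM of at least 1. In the last of these Kif18b was not tested and Kif18a was not called. The spindle count of 6 became 3 with that filter, which tests fewer genes. Other kinesins lower at E18 numbered 1 with DESeq2 and 1 with no filter, against 0. In both settings this was Kif12, which the main filter leaves out, since neither applied an expression filter. The causes of the remaining changes were not tested.

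With 1 sample left out, the genes called over the whole table ranged from 2137 to 4135 higher and from 2438 to 4661 lower. The counts ranged from 1 to 8 for mitotic kinesins higher at E18, from 2 to 4 for transport kinesins higher, from 0 to 2 for other kinesins lower, from 4 to 9 for light chains and adaptors lower (median log2 fold change -0.21 to -0.0963), from 0 to 11 for spindle genes higher and from 0 to 2 for spindle genes lower.

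The genes whose sign turned were all uncalled in the main test, and of them only Kif11 was called in any alternative (1 of 12, edgeR adjusted p = 0.0226). Their log2 fold changes ranged from -0.0021 to 0.070 for Kif1b, -0.075 to 0.031 for Kif3c, -0.15 to 0.034 for Kif2a, -0.11 to 1.44 for Kif11, -0.084 to 0.37 for Kif22, -0.012 to 0.21 for Kif27, -0.10 to 0.74 for Kifc1, -0.95 to 0.49 for Kif2c, -0.36 to 0.30 for Kif7 and -0.51 to 0.17 for Kif19a. Kif2b and Kif12 were too scarce for the filter of the main test. Without E18 replicate 1, all 10 other kinesins were tested, Kif12 included, with a lowest log2 fold change of -2.30.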
